A study of Mus musculus with 6 samples.

Results

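The miR-23/27/24 microRNAs (miRNAs) were followed across activation of the transcription factor GATA-1 in G1E-ER4, an erythroid line from mouse. Members were all array probes annotated mmu-miR-23a, mmu-miR-23b, mmu-miR-27a, mmu-miR-27b or mmu-miR-24, which gave 5 probes (1 for each name, 4 spots each) of 294 probes that name a mouse miRNA (275 names). RNA of 3 untreated cultures (0 h) and of 3 cultures given 1e-07 M estradiol for 24 h was labelled with the dye Hy3, and each was hybridised beside a Hy5-labelled pool of equal parts of all 6 samples. Cells of both groups express an estrogen-responsive form of GATA-1 and grew with 2 U per ml of erythropoietin, 50 ng per ml of stem cell factor and 15% fetal calf serum. G1E cells lack GATA-1 of their own. No cells without the estrogen-responsive GATA-1 and no cells kept for 24 h without estradiol were measured, so effects of estradiol itself and of time in culture cannot be told apart from those of GATA-1.

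MiRNAs guide Argonaute proteins to messenger RNAs, mainly through the seed, bases 2 to 8 of the mature strand, and lower the output of those messages. The miR-23, miR-27 and miR-24 families are each encoded side by side and made from common primary transcripts, and mammals carry a pair of such clusters. In human hematopoietic progenitors miR-24 restrains erythroid maturation by repressing an activin receptor, and in mouse progenitors the miR-23a cluster favours myeloid over B lymphoid cells.

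Mature strands are shown for their seeds and for the near-identity of the miR-27 pair. Mature 3p strands from RefSeq (GRCm38.p6) were matched for 4 of the 5 members, all but miR-23b, and the seed is given in capitals.
miR-23a-3p: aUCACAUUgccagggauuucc
miR-27a-3p: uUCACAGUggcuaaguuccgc
miR-27b-3p: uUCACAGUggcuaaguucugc
miR-24-3p: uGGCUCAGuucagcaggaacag
These strands carry 3 distinct seeds. MiR-27a-3p and miR-27b-3p shared their seed and 20 of 21 bases and differed only by C19U (miR-27a base first, position counted from 1 at the 5′ end). The seed of miR-23a differed from that of miR-27a by U7G alone, counted in the same way, with 6 of 7 seed bases shared. Probe sequences were not given in the files, and binding of a probe by the other copy of a family was not tested.

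The 6 hairpin genes lie in 2 clusters. Mir23a, Mir27a and Mir24-2 span 404 bases of the plus strand at chr8:84208518-84208921 with no protein-coding gene over them. Mir23b, Mir27b and Mir24-1 span 792 bases of the plus strand at chr13:63300484-63301275, inside the limits of Aopep, an aminopeptidase gene. The hairpins of the 2 miR-24 genes are shown because they give 1 and the same mature strand, in capitals.
Mir24-1: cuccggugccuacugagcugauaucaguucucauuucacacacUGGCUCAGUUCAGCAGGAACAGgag
Mir24-2: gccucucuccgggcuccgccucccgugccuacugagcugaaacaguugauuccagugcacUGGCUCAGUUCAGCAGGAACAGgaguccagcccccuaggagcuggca
The hairpins lie at chr13:63301208-63301275 and chr8:84208815-84208921, both on the plus strand. A miR-24 probe therefore cannot tell the clusters apart, while the other 4 names belong to 1 cluster each.

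On all 6 arrays the 5 miRNAs lay at or close to background in the sample channel. A spot counted as above background if its median lay at least 2 SD of the local background over that background's median, and 0 of the 120 sample spots of the 5 members met this (24 per miRNA over 6 arrays). In the reference channel 8 of 120 did, 3 of miR-23a, 3 of miR-24, 1 of miR-23b and 1 of miR-27b. With a share of at least 0.5 of the spots required on all 3 arrays of a group, 51 of 294 probes were above background and 0 of the 5 members. No fold change is therefore given for any of them, and their values below are log2 ratios of dim signals.

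The spot finder's own call of an empty spot, which is less strict, left miR-24 with 4 of 12 sample spots not empty on the untreated arrays and 10 of 12 on the estradiol arrays. For miR-23a these counts were 2 and 5 of 12, and for miR-23b 1 and 2 of 12. MiR-27a and miR-27b had 0 of 12 in either group. Over the spots of all 294 probes the share not empty in the sample channel was also larger after estradiol, 34.5% against 26.5%. In the sample channel miR-24 stood 0.56, 0.58 and 1.17 background SD above background on untreated replicates 1 to 3 and 1.20, 1.23 and 1.09 on estradiol replicates 1 to 3 (mean of 4 spots). Untreated replicate 3 thus lay inside the estradiol range, and the other untreated replicates below it.

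**Figure D1:**
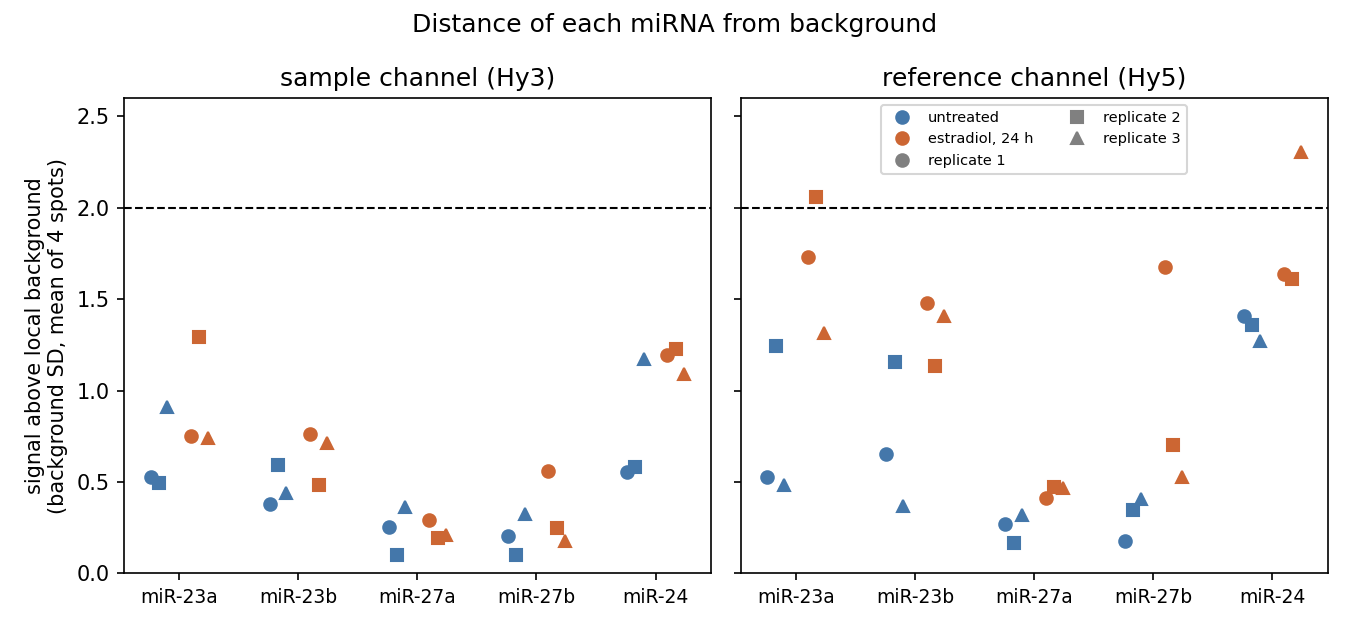
Distance from local background (y axis, in background SD, mean of 4 spots) for each miRNA (x axis) in the sample channel (left) and the reference channel (right), with 1 point per array, untreated in blue and estradiol in orange, and replicates 1 to 3 as circle, square and triangle. All sample values lie below the dashed line at 2 SD. In the reference channel the estradiol points of miR-23a, miR-27a, miR-27b and miR-24 lie above all their untreated points. Spots left out of the fits are included.

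The reference channel holds the same RNA pool on every array, yet its spots of these miRNAs also stood further above background on the estradiol arrays. Of 20 member spots per array, 5, 8 and 3 reference spots were not empty on untreated replicates 1 to 3 and 14, 12 and 11 on estradiol replicates 1 to 3. The sample spots not empty numbered 0, 2 and 5 against 6, 6 and 5. Both sets of counts include spots later left out for shape or contamination, 6 on untreated and 17 on estradiol arrays. On the spots that were kept, the reference counts of the groups overlapped. Over the spots of all 294 probes 28.7%, 36.1% and 25.7% of reference spots were not empty beside the untreated samples, against 43.5%, 40.4% and 40.5% beside the estradiol samples, so that the shift was not limited to the 5 miRNAs. For miR-24 the reference stood 1.41, 1.36 and 1.27 background SD above background beside the untreated samples and 1.64, 1.61 and 2.31 beside the estradiol samples, without overlap.

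In the reference channel 4 of the 5 members (all but miR-23b) had groups without overlap in this distance, beside 32% of all 294 probes, and all 4 were higher on the estradiol arrays, beside 31.3%. In the sample channel 0 of 5 members had groups without overlap, beside 31.3% of all probes (30.6% higher on the estradiol arrays). The local background itself was less even among the untreated arrays: its median over miRNA spots in the reference channel was 536, 747 and 1184 on untreated replicates 1 to 3 and 557, 543 and 587 on estradiol replicates 1 to 3. The part of this difference between arrays in the counts of spots not empty was not tested.

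Ratios of sample to reference were then compared, which cancels a factor that a spot shares between its channels, but not background added to each. None of the 5 miRNAs passed in either direction (limma adjusted p between 0.35 and 0.859, adjusted over 294 probes; threshold 0.05), while 6.46% of all probes passed (19 of 294), 5.78% higher and 0.68% lower after estradiol. At an unadjusted p under 0.05 there were 0 members and 17.3% of all probes (51). Their median difference, estradiol minus untreated, was -0.09 on the log2 scale, beside -0.02 over all 294 probes. Their median absolute difference was 0.15, beside 0.18 over all probes. Of the members 2 had a value above 0 and 3 a value below 0. In bulk RNA, fewer cells carrying a miRNA and less of it per cell cannot be told apart.

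MiR-24 had log2 ratios of -0.49, -0.15 and 0.01 on untreated replicates 1 to 3 and of 0.37, 0.02 and -0.16 on estradiol replicates 1 to 3. Its highest value was that of estradiol replicate 1 and its lowest that of untreated replicate 1, and the groups overlapped. Of its 24 spots 5 were left out, and untreated replicate 2 and estradiol replicate 2 rest on 2 spots each. Untreated cells had a mean of -0.21 ± 0.25 (SD, n = 3), and estradiol-treated cells one of 0.08 ± 0.27 (SD, n = 3). The difference of 0.29 (SE 0.18; limma adjusted p = 0.464) had a 95% confidence interval from -0.09 to 0.67. Leaving out estradiol replicate 1 gave 0.14, and leaving out untreated replicate 1 gave 0.15. The authors' deposited table held a log2 ratio of miR-24 on every array, at -0.52, -0.19 and -0.01 for the untreated and 0.42, 0.30 and -0.16 for the estradiol replicates. It was the only member with a deposited ratio on all 6 arrays.

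MiR-23a, the first miRNA of its cluster, was the 1 member whose groups did not overlap, beside 21.8% of all probes. Untreated replicates 1 to 3 had log2 ratios of 0.15, 0.19 and 0.34, and estradiol replicates 1 to 3 of 0.13, -0.16 and -0.18, so that the gap between the nearest arrays was small. The mean was 0.23 ± 0.10 (SD, n = 3) against -0.07 ± 0.17 (SD, n = 3). The difference of -0.30 (SE 0.15; 95% confidence interval from -0.62 to 0.03) did not pass (limma adjusted p = 0.35). With intensities not corrected for background it was 0.01 (limma adjusted p = 0.987), and the groups then overlapped.

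Few spots carry these values of miR-23a. Of its 24 spots 9 were left out for shape or contamination, 3 on untreated and 6 on estradiol arrays, and estradiol replicate 2 rests on 1 spot. With all spots kept the ratios were 0.17, 0.05 and 0.53 against -0.25, -0.17 and 0.05, and the difference was -0.37 (limma adjusted p = 0.268). In the authors' deposited table miR-23a had ratios of -0.12 and 0.90 on untreated replicates 2 and 3, none on untreated replicate 1, and -0.41, -0.23 and -0.27 on the estradiol arrays.

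MiR-23b, its counterpart in the other cluster, had the smallest difference of the members. Untreated replicates had ratios of -0.22, -0.06 and -0.09 and estradiol replicates of -0.14, 0.03 and -0.05, with overlapping groups. Of its 24 spots 6 were left out. Estradiol replicate 1 rests on 1 spot and estradiol replicate 2 on 2, all called empty in both dyes. The mean was -0.12 ± 0.09 (SD, n = 3) against -0.05 ± 0.08 (SD, n = 3), a difference of 0.07 (SE 0.15; 95% confidence interval from -0.24 to 0.38; limma adjusted p = 0.859). Leaving out 1 array gave 0.020 (without untreated replicate 1) to 0.11 (without estradiol replicate 1). The sign turned under other centrings of the arrays, to -0.09 with each array centred on its median.

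**Figure D2:**
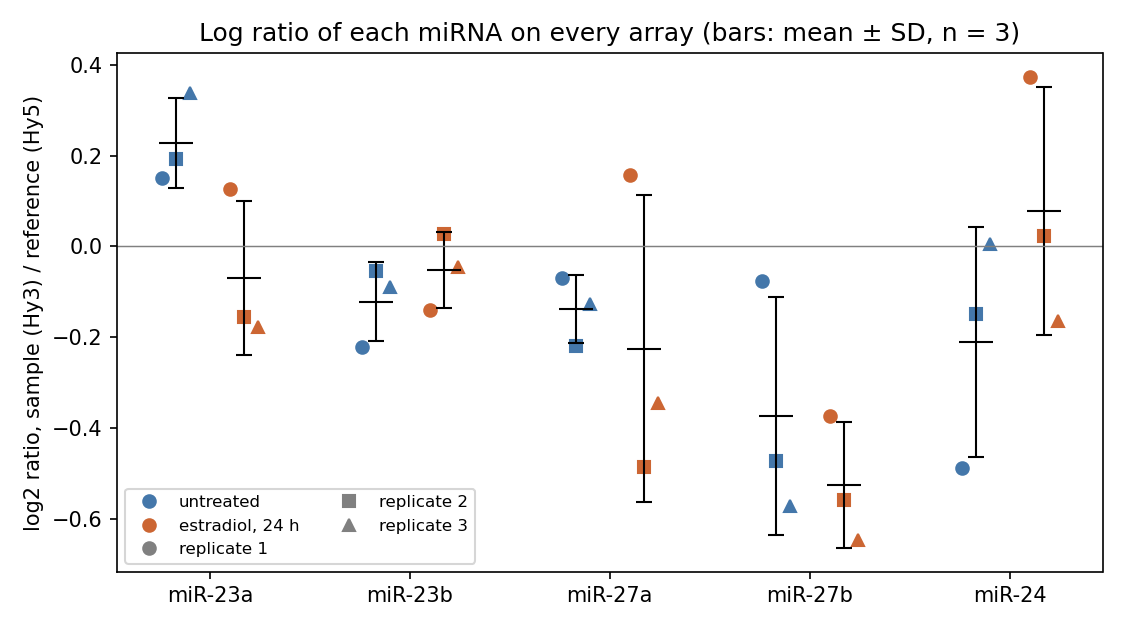
Log2 ratio of sample to reference (y axis) for each miRNA (x axis), with 1 point per array, untreated in blue and estradiol in orange, replicates 1 to 3 as circle, square and triangle, and black bars for mean ± SD (n = 3). The groups overlap for all members but miR-23a, whose estradiol replicate 1 at 0.13 lies just under its lowest untreated value of 0.15.

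The miR-27 probes, with no sample spot that was not empty, gave overlapping groups too. Ratios of miR-27a were -0.07, -0.22 and -0.13 for the untreated replicates and 0.16, -0.49 and -0.34 for the estradiol replicates. The estradiol values enclosed all untreated ones. The means were -0.14 ± 0.08 and -0.22 ± 0.34 (SD, n = 3), a difference of -0.09 (SE 0.18; 95% confidence interval from -0.47 to 0.30; limma adjusted p = 0.857). Leaving out estradiol replicate 2 turned it to 0.04.

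Ratios of miR-27b were all below 0, at -0.08, -0.47 and -0.57 for the untreated replicates and -0.37, -0.56 and -0.65 for the estradiol replicates, and overlapped. The means were -0.37 ± 0.26 and -0.53 ± 0.14 (SD, n = 3), and the difference of -0.15 (SE 0.17; 95% confidence interval from -0.52 to 0.21; limma adjusted p = 0.723) did not pass. Leaving out untreated replicate 1 moved it to about 0 (-0.0039). Of the 24 miR-27b spots 3 were left out, and estradiol replicate 1 rests on 2. Against a pool of equal parts, the ratios of a probe should average near 1 over the 6 arrays. That mean was 1.07 for miR-23a, 0.94 for miR-23b, 0.89 for miR-27a, 0.74 for miR-27b and 0.97 for miR-24, with a median of 0.99 over all probes. MiR-27b was the farthest from 1 of the 5.

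Each channel was also compared by itself, after quantile normalization between arrays. In the sample channel 0 of 5 members passed (limma adjusted p between 0.483 and 0.916), beside 1.36% of all probes, and 0 of 5 had groups without overlap, beside 24.1%. The difference of miR-24 was -0.10 (95% confidence interval from -0.87 to 0.66; limma adjusted p = 0.877), against 0.29 in the ratio. That of miR-23a was -0.06 (95% confidence interval from -0.82 to 0.69; limma adjusted p = 0.916). For miR-24, miR-27b (0.05) and miR-23b (-0.38) the sign was opposite to that in the ratio, and for miR-23a and miR-27a the same. These values are not among the counts of kept directions under other processing, given at the end.

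In the reference channel, where the RNA was the same on all arrays, the member differences ranged from -0.58 (miR-23b) to 0.16 (miR-23a), and 0 of 5 members and 0% of all probes passed (limma; 0 members and 14.6% of all probes at an unadjusted p under 0.05). Groups without overlap numbered 0 of 5 members there, beside 16.3% of all probes. The values for miR-24 and miR-27a in this channel were -0.25 and -0.40. These fits leave out 6 member spots on untreated and 17 on estradiol arrays. All 17 were not empty in the reference channel, and their part in the differences was not tested. In the sample channel the member differences ranged from -0.38 (miR-23b) to 0.05 (miR-27b), a narrower span than for the unchanged pool. Centred on the array median instead, the sample channel gave 0.43 for miR-24 (limma adjusted p = 0.394) and 0.40 for miR-23a (limma adjusted p = 0.478), so their sign changed with the scaling.

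**Figure D3:**
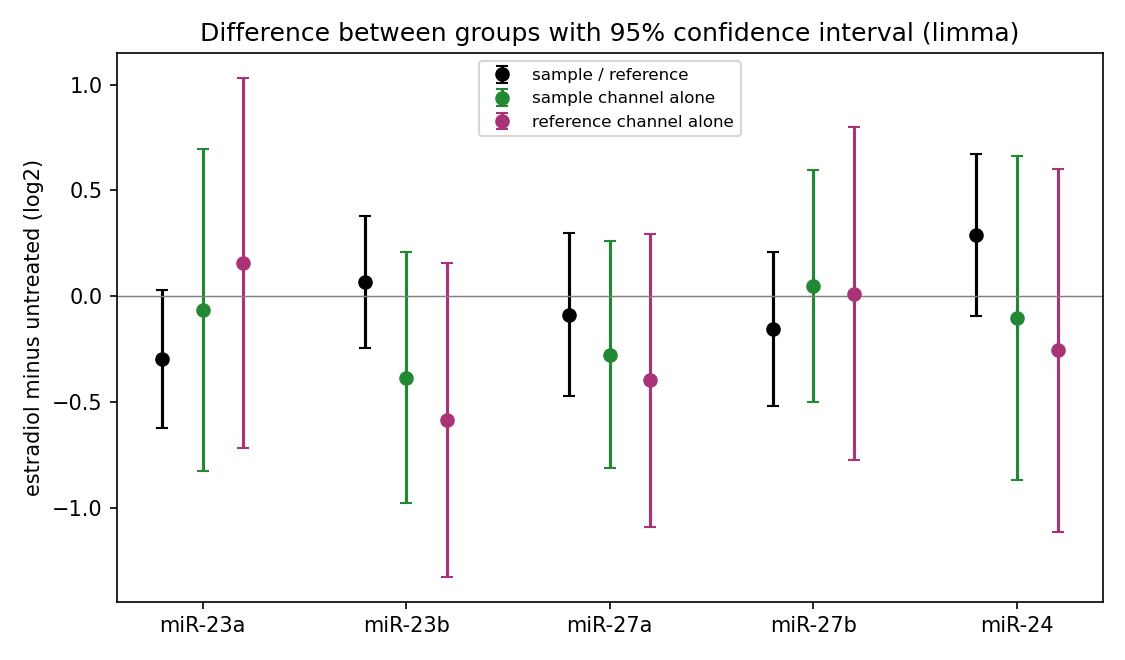
Difference between groups, estradiol minus untreated (y axis, log2), of each miRNA (x axis) for the ratio (black), the sample channel alone (green) and the reference channel alone (purple), with 95% confidence intervals from limma as bars (3 arrays per group). All 15 intervals include 0, and those of the single channels are wider than those of the ratio.

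Whether the copies in the chromosome 8 and chromosome 13 clusters moved apart was tested on the difference of their log2 ratios within each array. MiR-23a minus miR-23b gave 0.37, 0.25 and 0.43 for the untreated replicates against 0.27, -0.18 and -0.13 for the estradiol replicates. The change of -0.37 (SE 0.15) had an exact two-sided permutation p of 0.2 (adjusted over the 2 pairs, 0.4), where 3 against 3 arrays allow no p below 0.1. Without background correction it was -0.046. MiR-23a on estradiol replicate 2 and miR-23b on estradiol replicate 1 each rest on 1 spot. MiR-27a minus miR-27b was 0.01, 0.25 and 0.45 against 0.53, 0.07 and 0.30, a change of 0.07 (SE 0.18; exact permutation p = 0.7, adjusted 0.7). In the sample channel alone both changes had the opposite sign (0.32 and -0.32). Since the permutation test could not reach 0.05 with 3 arrays per group, it does not show whether the clusters differed. Binding of a probe by the other copy of its family was not tested either.

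MiRNAs of the erythroid program were read on the same arrays. Of 6 erythroid maturation miRNAs 4 rose and 0 fell, and 2 did not pass (median 0.87), beside 5.78% of all 294 probes higher and 0.68% lower. The list was chosen with earlier results of these data known, so this count is a description and no test. The 2 were miR-486 (0.43) and miR-185 (-0.11), and only miR-185 was above background on all 6 arrays. MiR-16 was above background on 2 estradiol arrays, and miR-15b on 1 untreated and 2 estradiol arrays. MiR-451, which accumulates as red cells mature, stood 0.18, 0.06 and 0.31 background SD above background in the untreated replicates and 7.39, 9.81 and 15.9 in the estradiol replicates, where all 12 of its spots were above background. Its sample signal was at least 6.4-fold higher after estradiol (limma adjusted p of the ratio = 1.3e-12). This bound sets the mean of the estradiol arrays (13.6, log2) against the lowest signal above background on each untreated array (mean 10.9), with dye channels scaled by loess and Aquantile and no dye swap to balance them. MiR-144, from the same locus, passed too (limma adjusted p = 1.15e-05; fitted log2 ratio difference 1.51), but with 0 of 12 untreated and 1 of 12 estradiol spots above background it has no measured fold, like the 5 members.

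The shares over all 294 probes, to set beside the counts here, were 5.78% higher and 0.68% lower after estradiol. Among 6 miRNAs that restrain erythroid maturation or mark other blood lineages, 1 fell, 0 rose and 5 did not pass (median 0.06). This list too was chosen with earlier results of these data known. The one that fell was miR-222, which represses the receptor Kit (fitted log2 ratio difference -0.75, SE 0.19; limma adjusted p = 0.0272), although 0 of its spots were not empty in the sample channel. MiR-103 stood at 0.42 (limma adjusted p = 0.0962). Of 7 myeloid marker probes 3 rose and 4 did not pass, the latter including miR-223 (0.39) and miR-155 (-0.26). MiR-142-3p rose by 0.92 (limma adjusted p = 0.00252) and was above background on all 6 arrays. MiR-21 had the largest fitted difference (1.25; limma adjusted p = 0.000195) but was above background on 0 arrays. The mean log2 sample intensity of the 7 overlapped, at 9.69 to 10.3 on the untreated and 10.1 to 10.2 on the estradiol arrays, and the part of these markers in the values of the miR-23a cluster was not tested. Of 5 megakaryocyte, 3 lymphoid and 7 fibroblast or vessel wall probes, 0 passed (limma).

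**Figure D4:**
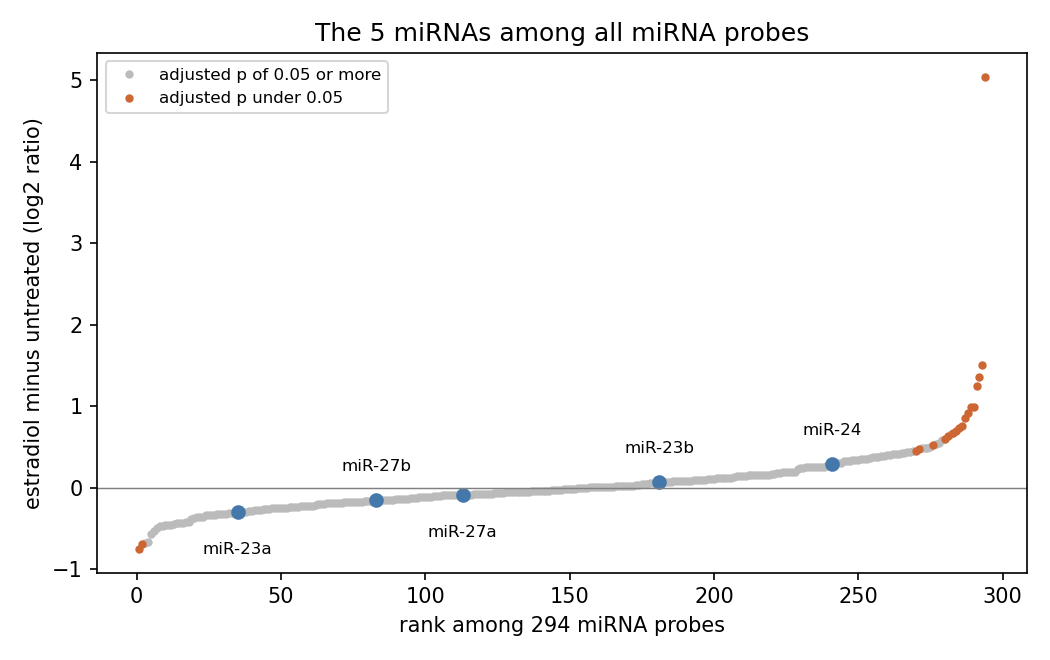
Difference of the log2 ratio, estradiol minus untreated (y axis), of all 294 miRNA probes ordered by it (x axis, rank), with probes at an adjusted p under 0.05 (limma) in orange and the 5 miRNAs as blue labelled points. The 5 lie between -0.30 and 0.29, among the probes that did not pass.

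The probes with the log2 ratios most like those of a member over the 6 arrays, by the smallest root mean square difference, were found for each. For miR-23a these were miR-503 (0.11) and miR-470 (0.12), both above background on all 6 arrays. For miR-24 they were miR-486 (0.14) and let-7g (0.17), above background on 0 and 2 arrays. For miR-23b they were miR-365 (0.09) and miR-381 (0.09), for miR-27a miR-469 (0.16) and miR-101b (0.18), and for miR-27b miR-424 (0.13) and miR-412 (0.15). Of these, miR-381 was above background on 1 array and the others on 0. No member had another member as its nearest. The median distance to all other probes ran from 0.33 (miR-23b) to 0.53 (miR-27b), and such likeness is only a description.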

How the data were processed

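Total RNA of 6 cultures was labelled with a Hy3/Hy5 kit by a service provider, per the labels. The authors' deposited scanner tables hold, for both dyes, uncorrected spot intensity, local background intensity and quality flags. Which scanner and software made them is not given in the sources used here. The authors' deposited tables of medians give a Hy3 over Hy5 ratio after lowess and its log2, per the file headers.

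Background was corrected by normexp (offset 50) from spot means and background medians. Loess was run on log2(Hy3/Hy5) of each array, control spots having weight 0. Spots of a probe were averaged after leaving out those flagged for shape or contamination (111 to 212 of 2240 per array). Counts of spots not empty or above background, and distances from background, include the spots left out. Groups were compared over all 294 miRNA probes, with no brightness filter, by lmFit and eBayes with an intensity trend and Benjamini-Hochberg adjustment (limma 3.58.1, R 4.3.3). The fit was tested on simulated data. Figures used matplotlib 3.10.9 (Python 3.11.15).

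All 5 miRNAs are described. From each of the erythroid maturation and restrainer lists the 2 with the largest absolute change are named, and the other miRNAs named with values were picked after their values were seen. The patterns most like a member were the 2 probes with the smallest root mean square difference. Members, lists and the choice to drop the filter were made with earlier results of these data known. Cultures were grown independently, per the labels. No slide or scan date was found in the tables, so no batch could be fitted.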

Additional observations from a re-analysis of the deposited data

How the results depend on the processing

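Of 20 alternatives, 17 to 19 gave a ratio for each miRNA, and none of the 5 passed in any of them (lowest limma adjusted p 0.124, miR-23a). MiR-24 kept its direction in 19 of 19 (0.05 to 0.42), miR-27b in 17 of 17 (-0.99 to -0.0039), miR-23a in 17 of 18 (-0.69 to 0.0051), miR-27a in 16 of 17 (-1.20 to 0.044) and miR-23b in 13 of 17 (-0.78 to 0.11). The counts include settings that alter only variance or probes tested and cannot turn a sign. MiR-23a was at 0.0051 without background correction, -0.51 with centring on spiked controls and -0.69 with the authors' deposited log2 ratios. MiR-23b turned to -0.093 with median centring, -0.25 with centring on spiked controls, -0.055 with the median of spots and -0.78 with a loess curve drawn only through spots bright in both dyes, a curve that 0 spots of the members entered. That curve moved miR-27a to -1.20 (limma unadjusted p = 0.0482, adjusted p = 0.177) and miR-27b to -0.99 (limma adjusted p = 0.192). Leaving out 1 array moved miR-27a between -0.28 and 0.044. The count of all probes that passed, 19, became 11 with that loess, 7 with the brightness filter (51 probes tested, no member among them), 8 with no intensity trend, and 8 (without estradiol replicate 1) to 25 (without untreated replicate 2) with 1 array left out, where estradiol replicate 2 gave 11. In the sample channel, median centring gave 0.40 for miR-23a and 0.43 for miR-24, and leaving out 1 array gave -0.38 to 0.13 (miR-23a), -0.20 to 0.18 (miR-27b) and -0.43 to 0.22 (miR-24). In the reference channel, median centring gave 0.78 for miR-23a, 0.33 for miR-27b, 0.023 for miR-23b and 0.22 for miR-24, and leaving out 1 array gave -0.28 to 0.38 (miR-23a) and -0.24 to 0.40 (miR-27b). The change of miR-23a minus miR-23b was -0.046 without background correction and 0.32 in the sample channel alone. That of miR-27a minus miR-27b was -0.32 in that channel and, in the ratio, ran from -0.049 to 0.18 with 1 array left out. At 1 background SD, miR-23a was above background on 2 arrays and miR-24 on 4. The cause of these shifts was not tested.

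The groups share replicate numbers, and each array correlated best with the one of its own number (0.13, 0.15 and 0.08). These correlations are weak, the labels do not pair the cultures, and pairing was not tested. The replicate block left the differences at -0.30, 0.07, -0.09, -0.15 and 0.29 for miR-23a, miR-23b, miR-27a, miR-27b and miR-24. It could not alter them, since each replicate number is in both groups, but only their precision. With the block 19 probes passed and 0 members did. Signal close to background limits all values of the 5 miRNAs, and 3 arrays per group limit their precision.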
